A study of Mus musculus with 18 samples.

Results

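Txnrd1, Txnrd2 and Txnrd3, the 3 thioredoxin reductases of the mouse, were followed by name through ribosome profiling and RNA-seq of mouse liver. They are 3 of the 23 selenoprotein genes that the deposited tables list. Livers came from male mice of 5 to 8 weeks in 4 groups. Secisbp2 knockout livers (Alb-Cre; Secisbp2fl/fl) had lost the protein that binds the SECIS hairpin of selenoprotein mRNAs, and were set against Secisbp2 wild type livers. Trsp knockout livers (Alb-Cre; Trspfl/fl) had lost the transfer RNA that carries selenocysteine, and were set against Trsp wild type livers. Each wild type group held male littermates. Alb-Cre drives the recombinase from the albumin promoter, which is active in hepatocytes, so the other cells of the whole livers keep the floxed gene. Each assay had 2 libraries for each group, except Trsp wild type with 3, which makes 18 libraries in all. In bulk liver, fewer cells of a type and less RNA per cell cannot be told apart.

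Thioredoxin reductases are flavoenzymes that take electrons from NADPH and pass them to thioredoxin, which in turn reduces ribonucleotide reductase, peroxiredoxins and many other proteins. Txnrd1 works in the cytosol and the nucleus, Txnrd2 in mitochondria, and Txnrd3, which also carries a glutaredoxin domain, is best known from the testis. All of them hold selenocysteine as the next-to-last residue, encoded by a UGA codon just before the stop codon. Termination at that UGA therefore gives a nearly full-length protein that lacks the catalytic selenocysteine. One sense codon follows the UGA, and the table of footprints 3' of it lists all 3 genes at 0 in all 9 footprint libraries. What could be followed was the mRNA, the density of ribosome footprints 5' of the UGA, and the ratio of these.

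The tables hold 23 selenoproteins and no other gene, so the loss of Secisbp2 and Trsp, the identity of the tissue and 17 other genes of the thioredoxin system were not analysed here. None of 18 marker genes of liver cell types is listed. All values are RPKM, reads per kilobase of the counted window scaled to the mapped reads of the library. Whole read numbers were recovered from the steps between RPKM values: Txnrd1 rested on 826 to 6335 mRNA reads and 146 to 2417 footprints a library, Txnrd2 on 293 to 1617 and 46 to 945, and Txnrd3 on 47 to 536 and 16 to 248. By the codes in the labels, the Secisbp2 knockout, the Secisbp2 wild type and all the Trsp libraries form 3 separate sets. For Secisbp2, genotype and library set therefore cannot be told apart. A call below is an adjusted p under 0.05 by limma over all genes tested.

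The 3 genes lie on chromosomes 10, 16 and 6, and their start regions are shown because their mRNAs were set against each other below. The sequences run from 250 bases before to 50 bases after the annotated start, on the plus strand, from RefSeq with GRCm38.p6 coordinates. Those of Txnrd1 (chr10:82858956-82859255, 1 of 3 annotated starts), Txnrd2 (chr16:18426167-18426466) and Txnrd3 (chr6:89643738-89644037) are given 5' to 3', with a match to the core of the antioxidant response element, TGACNNNGC, or its reverse complement GCNNNGTCA, in capitals.
Txnrd1: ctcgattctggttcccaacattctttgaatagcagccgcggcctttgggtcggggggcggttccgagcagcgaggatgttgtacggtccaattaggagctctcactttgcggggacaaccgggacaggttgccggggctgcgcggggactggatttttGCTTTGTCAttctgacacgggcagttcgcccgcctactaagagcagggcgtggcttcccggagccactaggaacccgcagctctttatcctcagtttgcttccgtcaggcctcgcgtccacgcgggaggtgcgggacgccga
Txnrd2: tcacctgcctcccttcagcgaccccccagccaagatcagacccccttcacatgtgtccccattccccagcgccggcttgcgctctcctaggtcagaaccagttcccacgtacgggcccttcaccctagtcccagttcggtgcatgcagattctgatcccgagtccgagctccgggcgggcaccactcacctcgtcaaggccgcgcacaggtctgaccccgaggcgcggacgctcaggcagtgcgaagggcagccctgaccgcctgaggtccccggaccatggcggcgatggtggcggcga
Txnrd3: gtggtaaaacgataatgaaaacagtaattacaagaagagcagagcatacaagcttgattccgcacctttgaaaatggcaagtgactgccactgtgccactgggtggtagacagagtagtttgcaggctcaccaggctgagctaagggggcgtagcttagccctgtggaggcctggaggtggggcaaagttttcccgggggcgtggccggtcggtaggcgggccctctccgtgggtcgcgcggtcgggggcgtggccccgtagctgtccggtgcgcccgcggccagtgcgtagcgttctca
Txnrd1 is a known target of NRF2, the factor that binds this element. The Txnrd1 window held 1 match, on the minus strand, while the other 2 Txnrd1 windows and the Txnrd2 and Txnrd3 windows held 0. Of 32851 windows of this length, 12.4% held a match.

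Among the 3 genes the order of the levels was the same in all 18 libraries: Txnrd1 was highest, Txnrd2 next and Txnrd3 lowest, per length. In Secisbp2 knockout livers Txnrd1 made up 64.6% ± 1.58 (SD, n = 2) of the summed RPKM of the 3 mRNAs, against 54.0% ± 1.20 (SD, n = 2) in Secisbp2 wild type. In Trsp knockout livers its share was 73.2% ± 0.0481 (SD, n = 2), against 68.1% ± 3.04 (SD, n = 3) in Trsp wild type. Across the groups, Txnrd1 mRNA was highest in Secisbp2 knockout livers at 51.7 ± 4.11 RPKM (SD, n = 2). Trsp wild type (36.8 ± 4.04 RPKM, SD, n = 3) and Secisbp2 wild type (36.4 ± 2.63 RPKM, SD, n = 2) came next and lay within each other's spread. Trsp knockout livers were lowest at 22.4 ± 1.07 RPKM (SD, n = 2). Txnrd2 and Txnrd3 ran in another order, with both Secisbp2 groups above both Trsp groups. Txnrd3 mRNA did not separate Secisbp2 knockout livers at 4.85 ± 0.467 RPKM from Secisbp2 wild type livers at 4.36 ± 1.09 RPKM (SD, n = 2 each).

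**Figure D1:**
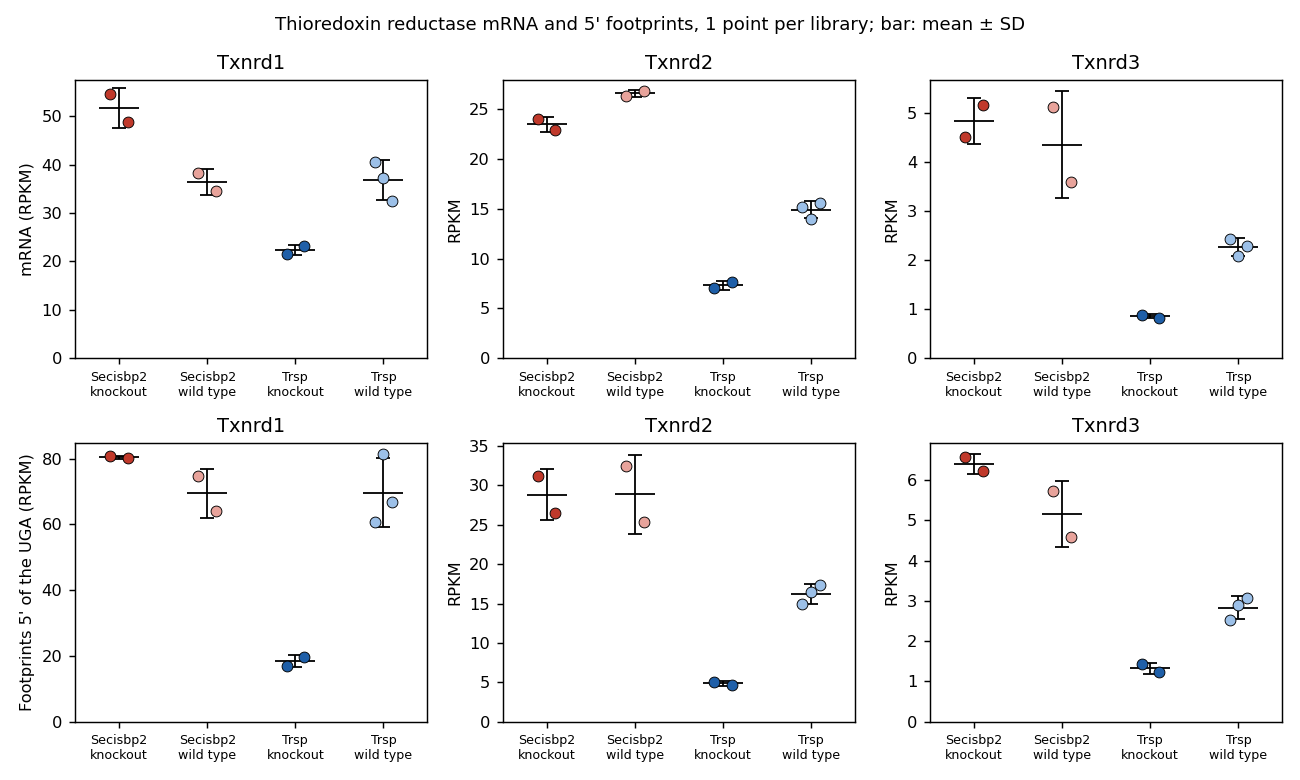
RPKM of Txnrd1, Txnrd2 and Txnrd3 in mRNA libraries (top) and in footprints 5' of the UGA (bottom), 1 point per library, by group, with the mean ± SD as a bar. In all 6 panels both Trsp knockout points lie below the 3 Trsp wild type points, which was not counted for the other genes. Of the 20 genes tested, 70% were called lower in mRNA and 55% in footprints in this comparison.

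The Trsp comparison asks what happens to these mRNAs when the gene of the selenocysteine transfer RNA is deleted in hepatocytes. All 3 thioredoxin reductase mRNAs fell in Trsp knockout livers, where 70% of the 20 genes tested were called lower and 75% in either direction. Txnrd1 mRNA had 21.6 and 23.1 RPKM in Trsp knockout livers, against 40.6, 37.3 and 32.6 RPKM in wild type. The groups did not overlap, and the knockout mean was 60.8% of the wild type mean. The log2 change of Txnrd1 on the scale of RPKM + 0.5 was -0.70 (SE 0.123, limma adjusted p = 0.000665). Txnrd2 mRNA had 7.01 and 7.64 RPKM in knockout livers, against 15.2, 14.0 and 15.6 RPKM in wild type. Both knockout values lay well under the lowest wild type value, at 49.1% of the mean (log2 change -0.98, SE 0.0979, adjusted p = 1.64e-05). Txnrd3 mRNA had 0.885 and 0.830 RPKM in knockout livers, against 2.44, 2.08 and 2.30 RPKM in wild type. The Txnrd3 mean was 37.7% of wild type, again without overlap. Its log2 change of -1.03 (SE 0.146, adjusted p = 0.000181) understates this, since 0.5 RPKM is large beside such low values, and came to -1.31 with 0.1 RPKM added instead. The 3 falls held without any single library. Scaling the libraries to the selenoproteins' median ratio takes out whatever change most of these genes share, and here shifts every mRNA change up by 0.56. Values under it are changes relative to the other selenoproteins, so a lost call does not undo a fall. The Txnrd1 change then came to -0.14 (adjusted p = 0.491) and those of Txnrd2 and Txnrd3 to -0.41 and -0.47 (adjusted p = 0.0179 and 0.0354). Set against Secisbp2 wild type livers instead, Txnrd2 and Txnrd3 mRNA differed by more, at -1.79 and -1.82.

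Footprints on the 3 mRNAs fell as well, where 55% of the 20 genes tested were called lower in footprints 5' of the UGA and 60% in either direction. Txnrd1 had 17.1 and 19.7 RPKM of footprints in Trsp knockout livers, against 60.8, 81.5 and 66.7 RPKM in wild type. The knockout mean was 26.4% of wild type, with no overlap (log2 change -1.89, SE 0.201, adjusted p = 0.000190). Txnrd2 had 5.09 and 4.66 RPKM of footprints in knockout livers, against 14.9, 16.4 and 17.4 RPKM in wild type. Both knockout values lay far below the lowest wild type value (log2 change -1.64, SE 0.196, adjusted p = 0.000284). Txnrd3 footprints were at 1.43 and 1.23 RPKM in knockout livers, against 2.52, 2.89 and 3.08 RPKM in wild type. These values came from 16 and 19 reads in knockout livers and 35, 33 and 30 reads in wild type. Counting error alone gives 16 reads an exact 95% Poisson interval of 9.15 to 26.0 reads. The Txnrd3 log2 change was -0.86 (SE 0.188, adjusted p = 0.00601). Leaving out Trsp knockout replicate 2 ended this call (-0.79, adjusted p = 0.0546), and so did the median ratio scaling (-0.16, adjusted p = 0.561), which shifts footprint changes up by 0.70 and brought Txnrd1 to -1.18 and Txnrd2 to -0.94. Set against Secisbp2 wild type livers, Txnrd2 footprints differed by -2.44 and Txnrd3 footprints by -1.63.

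For Txnrd1 and Txnrd2 the footprints fell further than the mRNA. The ratio of footprint to mRNA density was taken from libraries with the same number in the labels, and its change was tested in a fit over both assays that does not use these numbers. The numbers were not shown to mark the same liver, so the ratios per library describe 1 of the possible pairings. For Txnrd1 the ratio was 0.791 and 0.852 in Trsp knockout livers, against 1.50, 2.19 and 2.05 in wild type. Every knockout value lay below every wild type value, under any pairing of the libraries (at most 0.912 in knockout and at least 1.50 in wild type), at a mean of 0.821 ± 0.0436 (SD, n = 2) against 1.91 ± 0.365 (SD, n = 3). The log2 change of the ratio was -1.18 (SE 0.217, adjusted p = 0.00249), and it held without any single library of the 18. The Txnrd2 ratio was 0.727 and 0.610 in knockout livers, against 0.984, 1.18 and 1.12 in wild type. It too fell without overlap, under any pairing (at most 0.727 in knockout and at least 0.957 in wild type; log2 change -0.66, SE 0.193, adjusted p = 0.0479), close to the threshold. Txnrd3 had a ratio of 1.61 and 1.48 in knockout livers, against 1.03, 1.39 and 1.34 in wild type. Both Txnrd3 knockout values were above the wild type values in this pairing, but the ranges over all pairings overlapped (1.39 to 1.72 in knockout and 1.03 to 1.48 in wild type), and the log2 change of 0.16 (95% interval -0.32 to 0.65, adjusted p = 0.864) did not pass. Of the 20 genes tested, 10% were called lower in this ratio and 0% higher, and these 2 genes were Txnrd1 and Txnrd2.

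The Txnrd2 call was lost without Trsp wild type mRNA replicate 1, 2 or 3, Trsp knockout mRNA replicate 1 or 2, Secisbp2 knockout mRNA replicate 1 or 2, Trsp wild type footprint replicate 3, or Trsp knockout footprint replicate 1 or 2. In these 10 cases its log2 change stayed between -0.72 and -0.60, with an adjusted p of up to 0.167. It was also lost with no filter on low values (adjusted p = 0.0511), under the median ratio scaling (-0.52, adjusted p = 0.116) and against the pooled wild types (adjusted p = 0.522).

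**Figure D2:**
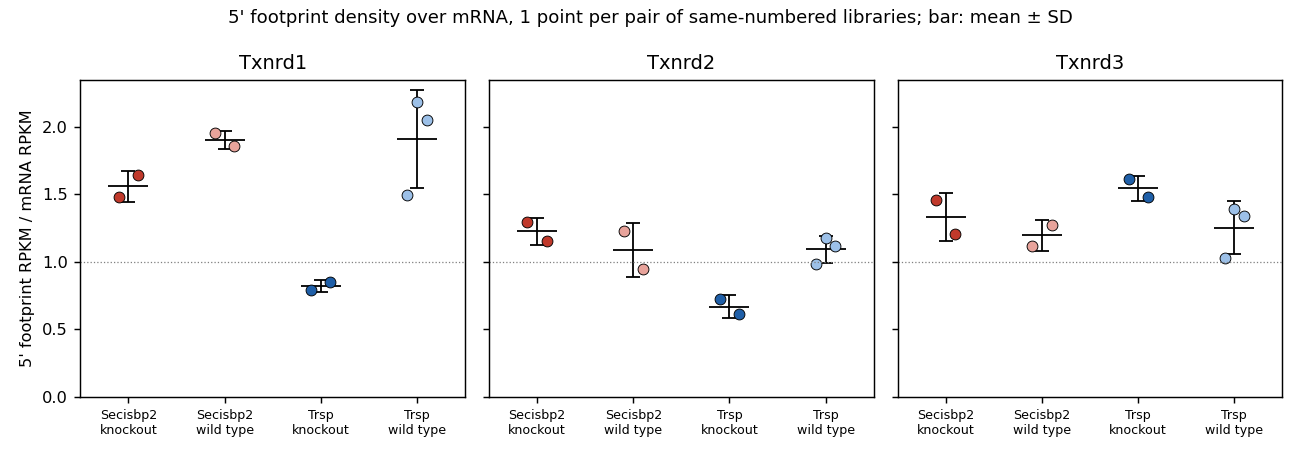
Ratio of 5' footprint RPKM to mRNA RPKM for each gene, 1 point per pair of same-numbered libraries, by group, with the mean ± SD as a bar and a dotted line at equal density. Txnrd1 in Trsp knockout livers, at 0.791 and 0.852, lies under all its other points, and so does Txnrd2 at 0.727 and 0.610, whereas Txnrd3 does not.

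The place of the 3 genes among the selenoproteins is seen by setting the footprint change against the mRNA change in Trsp knockout livers. On a list of 3 other selenoproteins with selenocysteine near the end of the protein, Selenok, which sits in the membrane of the endoplasmic reticulum, fell by 1.70 in mRNA and by 3.08 in footprints (log2, adjusted p = 5.21e-06 and 0.000945). Its ratio differed by -1.38 but did not pass (SE 0.527, adjusted p = 0.108). Selenoo, which transfers AMP to proteins, differed by -0.56 in the ratio (adjusted p = 0.138), and Selenos, another protein of the endoplasmic reticulum membrane, by 0.072 (adjusted p = 0.864). None of these 3 was thus called in the ratio, with a median of -0.56, beside -0.66 for the 3 thioredoxin reductases and 0.079 for all 20 genes. Selenoi, whose UGA also lies late, was not on this list and differed by only -0.11 in the ratio (adjusted p = 0.864). The median of the list therefore depends on which genes are counted as late. Of 10 other selenoproteins with a redox active site, 0 were called in the ratio, with a median of 0.086, and 1 had an unadjusted p under 0.05. In the mRNA, 6 of these 10 were called lower and 1 higher, with a median of -0.60, beside -0.98 for the thioredoxin reductases and -0.66 for all genes.

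**Figure D3:**
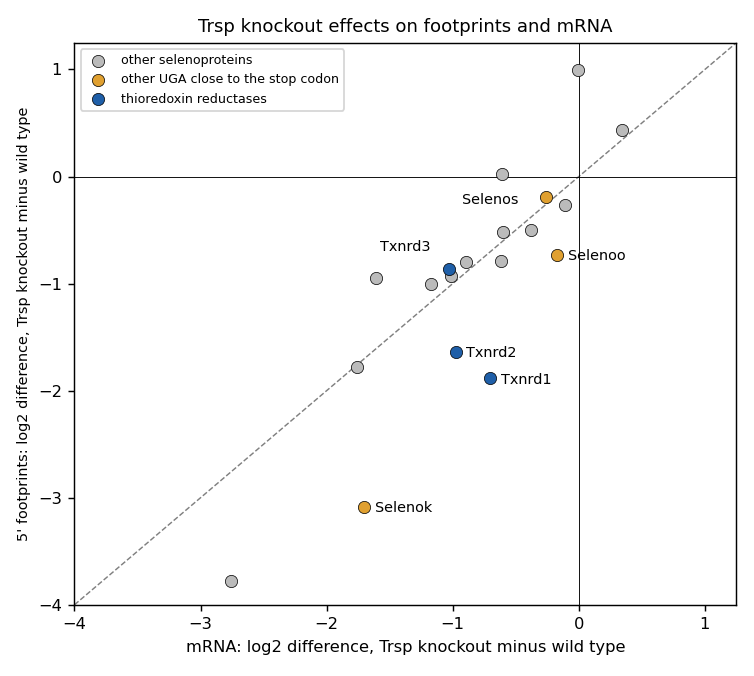
Log2 difference of footprints 5' of the UGA against that of mRNA, Trsp knockout minus Trsp wild type, for 19 of the 20 genes tested (Gpx2, far above the range of both axes, is left out). Txnrd1 and Txnrd2 lie below the dashed line of equal change with Selenok and Selenoo, and Txnrd3 lies just above it; 9 of the 19 genes are below the line.

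In Secisbp2 knockout livers none of the 3 genes was called lower, and Txnrd1 mRNA was called higher. Txnrd1 mRNA had 54.6 and 48.8 RPKM in Secisbp2 knockout livers, against 38.3 and 34.5 RPKM in wild type. Both knockout libraries were above both wild type libraries, and Txnrd1 rose (log2 change 0.50, SE 0.134, adjusted p = 0.00852), where 20% of the 20 genes tested were called higher and 50% lower. Txnrd2 mRNA had 24.0 and 22.9 RPKM in knockout livers, against 26.3 and 26.8 RPKM in wild type. The Txnrd2 groups did not overlap, but the log2 difference of -0.18 (95% interval -0.42 to 0.067) did not pass (adjusted p = 0.169). Txnrd3 mRNA had 4.52 and 5.18 RPKM in knockout livers, against 5.14 and 3.59 RPKM in wild type, with the groups overlapping (log2 difference 0.15, adjusted p = 0.403). Without Secisbp2 knockout replicate 1 the Txnrd1 call was lost (0.42, adjusted p = 0.0592), and without Secisbp2 wild type replicate 1, the shallowest mRNA library, Txnrd3 passed at 0.38 (adjusted p = 0.0290). Set against Trsp wild type livers, Txnrd2 turned to 0.64 and Txnrd3 came to 0.95 (each adjusted p = 0.000271). Under the median ratio scaling, which shifts these changes up by 0.50, Txnrd1, Txnrd2 and Txnrd3 came to 1.00, 0.33 and 0.65 (adjusted p = 0.000692, 0.0505 and 0.00846).

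Footprints 5' of the UGA gave no call for the 3 genes in Secisbp2 knockout livers, where 45% of the 20 genes tested were called lower and 0% higher, and none of the 3 had an unadjusted limma p under 0.05. Txnrd1 had 80.8 and 80.1 RPKM of footprints in knockout livers, against 74.7 and 64.1 RPKM in wild type. The knockout values were the higher, but the log2 difference was 0.22 with a 95% interval of -0.30 to 0.73 (adjusted p = 0.397). Txnrd2 had 31.1 and 26.5 RPKM of footprints in knockout livers, against 32.4 and 25.4 RPKM in wild type, which overlap almost fully (log2 difference 0.00307, 95% interval -0.50 to 0.50, adjusted p = 0.989). Txnrd3 had 6.58 and 6.23 RPKM of footprints in knockout livers, against 5.73 and 4.58 RPKM in wild type. Its log2 difference was 0.29 (95% interval -0.19 to 0.77, adjusted p = 0.275). These 3 values rest on the scaling: at the selenoproteins' median ratio, which shifts them up by 0.68, they were 0.90, 0.69 and 0.98 and each passed (adjusted p = 0.00486, 0.0212 and 0.00629). Set against Trsp wild type livers, Txnrd2 passed at 0.81 (adjusted p = 0.00742) and Txnrd3 at 1.06 (adjusted p = 0.00173).

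The ratio of footprints to mRNA did not pass for any of the 3 genes in Secisbp2 knockout livers, where 5% of the 20 genes tested were called, and none of the 3 had an unadjusted limma p under 0.05. The Txnrd1 ratio was 1.48 and 1.64 in Secisbp2 knockout livers, against 1.95 and 1.86 in wild type. Its values were lower in both knockout livers, under any pairing (at most 1.66 in knockout and at least 1.68 in wild type), with a log2 difference of -0.28 and a 95% interval of -0.80 to 0.23 (adjusted p = 0.573). The Txnrd2 ratio was 1.30 and 1.16 in knockout livers, against 1.23 and 0.945 in wild type (log2 difference 0.18, 95% interval -0.28 to 0.64, adjusted p = 0.686). The Txnrd3 ratio was 1.46 and 1.20 in knockout livers, against 1.12 and 1.28 in wild type (log2 difference 0.14, 95% interval -0.39 to 0.67, adjusted p = 0.755). For both of these genes the groups overlapped. Of the others with selenocysteine near the end of the protein, Selenoo mRNA rose by 0.50 (adjusted p = 0.00296) and Selenos mRNA fell by 0.95 (adjusted p = 0.000909) in Secisbp2 knockout livers. Selenoi mRNA rose by 0.51 (adjusted p = 0.0107). Selenok, whose ratio differed by 1.50 (adjusted p = 0.169), did not pass in any of the 3 quantities.

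**Figure D4:**
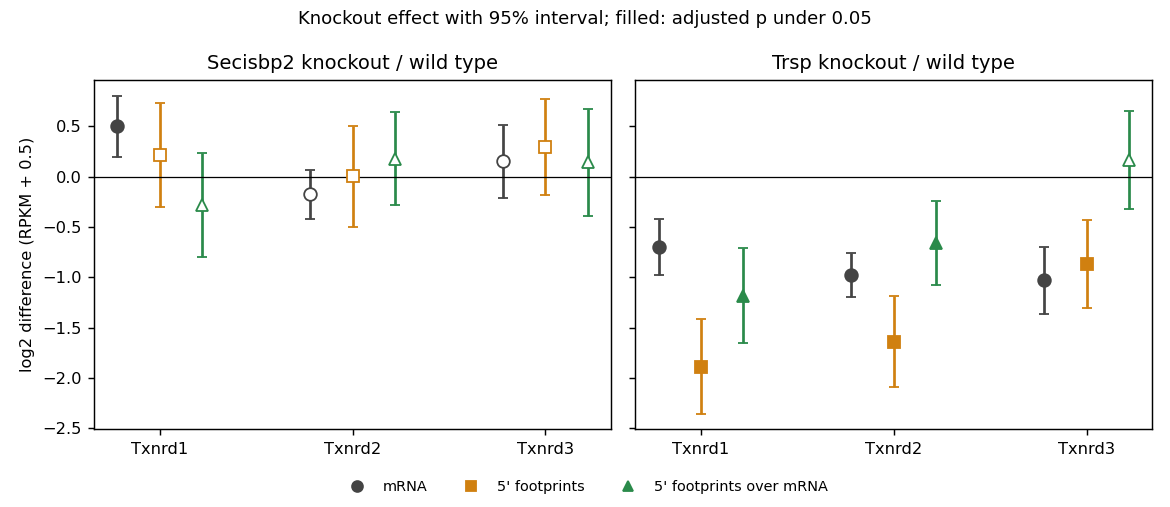
Log2 difference, knockout minus wild type, with its 95% interval, for mRNA (circles), 5' footprints (squares) and their ratio (triangles), with filled symbols for an adjusted p under 0.05. In the Secisbp2 comparison (left) Txnrd1 mRNA at 0.50 is the one filled symbol; in the Trsp comparison (right) all mRNA and footprint symbols are filled and below 0, as are the ratios of Txnrd1 and Txnrd2.

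Whether the knockouts differed was tested as the Secisbp2 knockout effect minus the Trsp knockout effect, each taken against its own wild type. All 3 mRNAs were higher by this difference, where 35% of the 20 genes tested were called higher and 70% in either direction. The differences were 1.20 for Txnrd1 (SE 0.182, adjusted p = 0.000475), 0.80 for Txnrd2 (SE 0.145, adjusted p = 0.00131) and 1.18 for Txnrd3 (SE 0.216, adjusted p = 0.00131) on the log2 scale. For footprints 5' of the UGA, 3 of 3 were again higher, where 30% of the genes tested were called higher and 55% in either direction. Here the differences were 2.10 for Txnrd1 (SE 0.298, adjusted p = 0.00137), 1.64 for Txnrd2 (SE 0.290, adjusted p = 0.00231) and 1.16 for Txnrd3 (SE 0.279, adjusted p = 0.00893). These 6 calls held without any single library and under the median ratio scaling, which moves the differences by less than 0.1, though not under every alternative tried for Txnrd3 footprints. For the ratio of footprints to mRNA 0 of 20 genes passed, although 5 had an unadjusted limma p under 0.05. Txnrd1, at 0.90 (unadjusted p = 0.0156, adjusted p = 0.0626), and Txnrd2, at 0.84 (unadjusted p = 0.0120, adjusted p = 0.0602), were among these, and Txnrd3 was at -0.023. The fall of the Txnrd1 and Txnrd2 ratios in Trsp knockout livers was therefore not shown to differ from the change in Secisbp2 knockout livers.

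Between the wild type livers of the colonies, Txnrd2 and Txnrd3 were called different and Txnrd1 was not; the genes were not tested against each other. Txnrd1 mRNA averaged 36.4 ± 2.63 RPKM in Secisbp2 wild type (SD, n = 2) and 36.8 ± 4.04 RPKM in Trsp wild type (SD, n = 3), a log2 difference of -0.013 (95% interval -0.29 to 0.27, adjusted p = 0.920). Txnrd2 mRNA was at 26.6 ± 0.349 RPKM in Secisbp2 wild type and 14.9 ± 0.836 RPKM in Trsp wild type, 1.78 times as high, with no overlap (log2 difference 0.82, SE 0.0979, adjusted p = 0.000411). Txnrd3 mRNA was at 4.36 ± 1.09 RPKM in Secisbp2 wild type and 2.27 ± 0.182 RPKM in Trsp wild type, 1.92 times as high (log2 difference 0.79, SE 0.146, adjusted p = 0.00134). Of the 20 mRNAs tested, 20% were called higher in Secisbp2 wild type and 25% lower. Both mRNA calls held without any single library. Both groups are named wild type in the labels, but the libraries come from separate sets, so colony and library set cannot be told apart.

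Footprints moved with the mRNAs between the wild types. Txnrd2 had 28.9 ± 5.01 RPKM of footprints in Secisbp2 wild type and 16.2 ± 1.24 RPKM in Trsp wild type (log2 difference 0.80, SE 0.196, adjusted p = 0.0274). Txnrd3 had 5.16 ± 0.811 RPKM in Secisbp2 wild type and 2.83 ± 0.289 RPKM in Trsp wild type (log2 difference 0.76, SE 0.188, adjusted p = 0.0274). Txnrd1 had 69.4 ± 7.50 RPKM in Secisbp2 wild type and 69.7 ± 10.6 RPKM in Trsp wild type (SD, n = 2 and n = 3), with a log2 difference of 0.00109 (adjusted p = 0.996). Of the 20 genes tested, 15% were called higher and 0% lower. Both calls ended when Secisbp2 wild type replicate 1 was left out (Txnrd2 at 0.63 and Txnrd3 at 0.61, adjusted p = 0.161). The same held for Trsp wild type replicate 1 (0.75 and 0.69, adjusted p = 0.0951) and replicate 3 (0.85 and 0.82, adjusted p = 0.0647), and for either Trsp knockout library (0.80 and 0.76, adjusted p = 0.0670). The ratio of footprints to mRNA in Secisbp2 wild type livers was 1.90 ± 0.0684 for Txnrd1, 1.09 ± 0.203 for Txnrd2 and 1.20 ± 0.114 for Txnrd3 (SD, n = 2). In Trsp wild type livers it was 1.91 ± 0.365 for Txnrd1, 1.09 ± 0.0981 for Txnrd2 and 1.25 ± 0.195 for Txnrd3 (SD, n = 3). None of the 3 had an unadjusted limma p under 0.05, where 10% of the genes tested were called.

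Ratios of the 3 genes within a library do not depend on how libraries are scaled. Txnrd1 mRNA was 12.1 and 9.42 times Txnrd3 mRNA in Secisbp2 knockout livers, against 7.45 and 9.62 times in Secisbp2 wild type, with the groups overlapping. In Trsp knockout livers it was 24.4 and 27.9 times, against 16.6, 17.9 and 14.2 times in Trsp wild type. In footprints the order was the other way: Txnrd1 was 12.0 and 16.0 times Txnrd3 in Trsp knockout livers, against 24.2, 28.2 and 21.6 times in wild type. Neither pair of Trsp groups overlapped. Txnrd3 footprints rested on only 16 and 19 reads in Trsp knockout livers and 35, 33 and 30 in Trsp wild type, so counting error is large in ratios to Txnrd3 footprints. The exact permutation test as run here doubles the one-sided p. It cannot give a p below 0.2 for 2 against 3 libraries, or below 0.333 for 2 against 2, so these ratios are descriptions. Txnrd1 mRNA was 2.27 and 2.13 times Txnrd2 mRNA in Secisbp2 knockout livers, against 1.45 and 1.29 times in Secisbp2 wild type. In Trsp knockout livers it was 3.09 and 3.03 times, against 2.68, 2.67 and 2.09 times in Trsp wild type. In both colonies the knockout livers thus had the higher ratio of Txnrd1 to Txnrd2 mRNA, without overlap. In footprints this ratio differed by 0.21 (log2) for Secisbp2, without overlap, but by -0.18 for Trsp, with overlap. The ratio of Txnrd2 to Txnrd3 mRNA went opposite ways, by -0.35 for Secisbp2, with overlap, and by 0.38 for Trsp, without. In footprints it was lower in both knockouts, by -0.32 and -0.64, without overlap.

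Across the 9 mRNA libraries, the 2 genes most like each thioredoxin reductase, by Pearson's r of log2(RPKM + 0.5) among 19 others, were the other 2 of the family. Txnrd2 and Txnrd3 were the closest pair with r = 0.970. The r was 0.880 for Txnrd1 with Txnrd3 and 0.823 for Txnrd1 with Txnrd2. Across the 9 footprint libraries Txnrd2 and Txnrd3 had r = 0.966 and Txnrd1 and Txnrd2 had r = 0.934. Selenok, at r = 0.862, was nearer to Txnrd1 there than Txnrd3 was, at r = 0.846. These points share their libraries' depth and scaling and fall into 4 groups, so each r is a description.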

How the data were processed

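Ribosome footprints (RNase I, monosomes) and fragmented polyA RNA from mouse liver were sequenced, per the labels' protocols. The labels state 3 mice per genetic background but do not tie each library to a mouse. The authors deposited RPKM values, per the file headers, for RNA-seq and for footprints before and after the UGA. The submitters' processing notes name Bowtie 0.12.8 and the build mm9. Counting, annotation and windows are not given in the sources used here, nor is how reads shared by similar genes were treated. RefSeq (GRCm38.p6) gave names and promoter sequences alone; of 23 symbols 11 were current and 12 were matched by a synonym.

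Whole reads were recovered from the RPKM steps; all 184 footprint and 203 mRNA values above 0 came within 0.02 of a whole number, which the recovery itself required. The deepest library had 4.08 times the depth of the shallowest among footprints and 5.60 times among mRNA; total depth is unknown. Poisson intervals cover counting error only, since without molecular identifiers reads can be copies of 1 molecule. limma tests used log2(RPKM + 0.5), which understates changes of low genes, on the 20 genes averaging 1 RPKM or more, with limma 3.58.1 in R 4.3.3. All 4 groups shared an estimate of the spread. The ratio of 5' footprints to mRNA was the interaction of assay and genotype over all 18 libraries. Each two-sided p was adjusted by Benjamini-Hochberg across these 20 genes, and measures only the spread between libraries. The fits were also run on simulated data in which every gene had the same spread beyond counting error. Real genes need not, so no call here rests on that run. Python 3.11.15 and scipy 1.17.1 were used for the rest.

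The 3 genes and the lists were chosen with earlier results of these data known. The genes named were the 3 thioredoxin reductases, the 2 genes most correlated with each, and Selenok, Selenos and Selenoo. Selenoi was added after seeing the data. Alternatives were other pseudocounts (0.1 and 1 RPKM), filters (none and 5 RPKM), a replicate block, the compared groups alone, other controls, a scaling to the selenoproteins' median ratio, precision weights from the reads (not for the ratio), and leaving out each library. The ratios under every pairing of libraries were added after seeing the data. Whether groups overlap was worked out for the 3 thioredoxin reductases alone, so no share over all genes tested stands beside it.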

Additional observations from a re-analysis of the deposited data

Results flagged for a closer look

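The effects of the 2 knockouts, each against its own wild type, differed by the limma test of the difference itself for 6 results of the 3 genes. Of all 20 genes tested, 70% were called in either direction for this difference in mRNA and 55% in footprints 5' of the UGA. For mRNA the Secisbp2 knockout effect minus the Trsp knockout effect was 1.20 for Txnrd1 (adjusted p = 0.000475), 0.80 for Txnrd2 (adjusted p = 0.00131) and 1.18 for Txnrd3 (adjusted p = 0.00131) on the log2 scale. For footprints 5' of the UGA it was 2.10 for Txnrd1 (adjusted p = 0.00137), 1.64 for Txnrd2 (adjusted p = 0.00231) and 1.16 for Txnrd3 (adjusted p = 0.00893). In these comparisons Txnrd1 differed between Secisbp2 knockout and wild type livers by 0.50 in mRNA and 0.22 in footprints, and between Trsp knockout and wild type livers by -0.70 and -1.89. Of the wild type controls, Txnrd1 mRNA was 98.8% as high in Secisbp2 wild type as in Trsp wild type, while Txnrd2 and Txnrd3 mRNA were 1.78 and 1.92 times as high in Secisbp2 wild type as in Trsp wild type. The part of these controls in the Txnrd2 and Txnrd3 differences was not tested. In all 6 results the Secisbp2 side also holds a difference of library set, which cannot be told apart from genotype.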

How the results depend on the processing

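Of 36 results for the 3 genes 19 passed the threshold (52.8%), beside 92 of 240 for all genes tested (38.3%). The 19 had 345 alternatives. These kept the direction in each case, and 314 kept the call. The number of the 3 genes called moved by over 1.5 times in the cases that follow; where no cause is named, the cause was not tested. For Secisbp2 knockout mRNA 1 became 2 under the median ratio scaling and 3 against Trsp wild type, and 0 to 2 with a library left out. For Secisbp2 knockout footprints 0 became 3 and 2 under the same settings. For the Trsp knockout ratio of footprints to mRNA 2 became 1 without a filter, under the scaling and with pooled wild types, and 1 to 2 with a library left out. For wild type against wild type, 2 became 1 at a mean of at least 5 RPKM in mRNA and in footprints, since this drops Txnrd3. The 2 for footprints became 0 with the replicate block, and 0 to 2 with a library left out. Smaller moves, from 3 to 2, were those of Trsp knockout mRNA (scaling), Trsp knockout footprints (scaling, block, and without Trsp knockout replicate 2) and the difference of effects in footprints (block), and of all these and the difference of effects in mRNA at 5 RPKM, which drops Txnrd3. Signs turned for Txnrd2 in Secisbp2 knockout mRNA (0.33 scaled, 0.31 with pooled wild types, 0.64 against Trsp wild type, the one that passed). Between the wild types Txnrd1 turned to 0.11 in mRNA, -0.062 in footprints and -0.17 in the ratio when scaled, and to -0.024 in footprints with the block. The Txnrd3 difference of knockout effects in the ratio turned to 0.035 with 1 RPKM added and to 0.021 when scaled. With a library left out, values that changed sign ran from -0.079 to 0.38 (Txnrd3, Secisbp2 mRNA), -0.17 to 0.18 (Txnrd2, Secisbp2 footprints), -0.089 to 0.37 (Txnrd3, Secisbp2 ratio) and -0.25 to 0.21 (Txnrd3, difference of effects in the ratio). Between the wild types they ran from -0.097 to 0.060 (Txnrd1 mRNA), -0.11 to 0.12 (Txnrd1 footprints), and -0.096 to 0.13, -0.19 to 0.16 and -0.26 to 0.20 (ratio of Txnrd1, Txnrd2 and Txnrd3). Of these, Txnrd3 mRNA passed at 0.38, without Secisbp2 wild type replicate 1.

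Same-numbered libraries did not all deviate together (r from -0.44 to 0.67 across genotypes and from -0.42 to 0.45 across assays), so the reported tests do not take the numbers as pairs. The block cost Txnrd3 footprints the Trsp knockout call (-0.81, adjusted p = 0.0551) and the difference of effects (1.10, adjusted p = 0.0713). It cost the wild type comparison Txnrd2 (0.85, adjusted p = 0.103) and Txnrd3 (0.82, adjusted p = 0.106), and no other call. The scaling takes out a change that most of the 20 genes share, so calls under it are relative to the other selenoproteins. Over all 20 genes it turned 4 higher and 10 lower mRNAs into 6 and 8 for Secisbp2, 1 and 14 into 4 and 7 for Trsp, 0 and 9 footprint calls into 8 and 5, and 1 and 11 into 3 and 4. Of the 3 genes depth limits Txnrd3 most, at 16 footprints in its lowest library.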
